A study of Danio rerio with 30 samples.

Results

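The antioxidant and glutathione enzyme genes are here the genes whose platform symbol begins with gst, gpx, prdx, txn, glrx, msra, msrb or hmox, or is one of the superoxide dismutases sod1 to sod3, gclc, gclm, gsr, cat or nqo1. On the zebrafish array 55 probe sets met that rule, and they stood for 43 of the 8793 genes with a single symbol. No haem oxygenase symbol was among them. The rule goes by symbol alone, so it also took in thioredoxin inhibitors and thioredoxin-like and thioredoxin domain proteins, and not every member is an enzyme. Below, "enzyme genes" means this whole set. Each gene is represented by the probe set with the highest mean over all arrays, so a value describes that probe set, and levels of different probe sets are not compared.

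The study exposed adult AB strain zebrafish, 1 year old, and measured total RNA of olfactory tissue on 30 Affymetrix arrays, 3 for each of 10 groups. The groups were an unexposed control, chlorpyrifos (CPF, an organophosphate insecticide) alone at 0.1, 0.25 or 0.6, copper (Cu) alone at 0.1, 0.25 or 0.6, and each CPF concentration together with Cu 0.25. The labels name no unit for these concentrations. They do not say whether the 3 arrays of a group came from separate fish, so the p-values reflect only how much those arrays differ, which may be technical. The tissue is named as olfactory rosettes in one label and as rosettes with bulbs and forebrain in another, and markers of both were present: ompb, the olfactory marker protein, ranged in log2 from 3.56 to 6.69, and tbr1b, a forebrain transcription factor, from 10.18 to 10.85.

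Cells remove superoxide with superoxide dismutases, which make hydrogen peroxide, and remove the peroxide with catalase, glutathione peroxidases and peroxiredoxins. For the glutathione peroxidases and peroxiredoxins the electrons come from NADPH through glutathione reductase and glutathione or through thioredoxin reductase and thioredoxin. Glutathione transferases attach glutathione to reactive compounds, glutaredoxins and methionine sulfoxide reductases repair oxidised proteins, and NQO1 reduces quinones. In vertebrates the transcription factor Nrf2, held in check by Keap1, drives many of these genes, and copper ions that cycle between their redox states are a known source of reactive oxygen. The olfactory epithelium faces the water and is known for high levels of detoxifying enzymes.

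Of the 43 genes, 38 had a log2 value over 4 in 3 or more arrays and were tested, among 10531 probe sets tested in all. The other 5 were listed but not tested: gpx8 (3.17 to 3.96), gstcd (2.29 to 2.58), gstt1a (2.27 to 3.49), txnipb (2.27 to 2.67) and msrb1a (3.09 to 4.39, above 4 in 1 array). Array medians lay between 5.53 and 5.63, correlations between arrays over all probe sets between 0.983 and 0.997, and no 2 arrays were identical. By the mean log2 of pancreatic enzyme transcripts, the 4 highest arrays were picked out (5.25 to 6.90 against 3.51 to 4.44 in the rest). They were CPF 0.25 replicates 1 and 3, Cu 0.25 replicate 3 and CPF 0.6 replicate 2. The main values of the groups that hold them are given with and without them, the latter in a fit chosen after the data were seen.

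The first comparison asked what Cu 0.25 did on average over the 4 CPF levels (none, 0.1, 0.25 and 0.6), with 12 arrays that had copper and 12 that had none. In limma, a linear model fitted across all probe sets, 4 enzyme genes passed an adjusted p of 0.05. The thioredoxin-like gene txnl1, the omega class transferase gene gsto2 and the peroxiredoxin gene prdx4 were higher, and the quinone reductase gene nqo1 was lower. That is 4 of 38 genes (10.5%), where 4.35% of all probe sets were called, 2.17% higher and 2.17% lower.

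txnl1 encodes a thioredoxin-like protein that binds the proteasome in mammals. Its log2 level in the arrays without copper ran from 5.60 to 6.26 with a median of 6.04, and in those with Cu 0.25 from 6.15 to 6.70 with a median of 6.47. The ranges overlapped only between 6.15 and 6.26, and all 12 copper arrays lay above the no-copper median. The difference was 0.42 ± 0.07 (SE) log2, or 1.34-fold (limma, adjusted p = 0.000747). It was 0.31 without CPF, 0.24 at CPF 0.1, 0.83 at CPF 0.25 and 0.30 at CPF 0.6. The larger value at CPF 0.25 came with the lowest group mean of the 10, CPF 0.25 alone (5.69, 5.60 and 6.10), and with the highest, CPF 0.25 + Cu 0.25 (6.47, 6.70 and 6.62). Of the 3 CPF 0.25 arrays, replicates 1 and 3 are rich in pancreatic enzymes. Without the 4 such arrays the averaged difference was 0.45 (adjusted p = 0.00721), and that at CPF 0.25 was 1.02, with replicate 2 (5.60) as the only array of CPF 0.25 alone.

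gsto2 belongs to the omega class of glutathione transferases, whose mammalian members also reduce dehydroascorbate. Its level without copper ran from 8.41 to 10.16 (median 9.23), and with copper from 9.36 to 10.38 (median 9.95). The ranges overlapped widely, since control replicate 2 was at 10.16 and the other 2 controls at 8.88 and 9.23, but all 12 copper arrays lay above the no-copper median. The difference was 0.80 ± 0.17 log2, or 1.74-fold (limma, adjusted p = 0.00813), and lay between 0.56 and 0.95 at the 4 CPF levels. The call ended without the 4 arrays rich in pancreatic enzymes, at 0.83 log2 (adjusted p = 0.0506), with 0.70 to 1.01 at the 4 CPF levels.

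prdx4, the peroxiredoxin of the secretory pathway, lay between 7.15 and 7.59 without copper (median 7.45) and between 7.45 and 8.21 with it (median 7.69). All 12 copper arrays were above the no-copper median, some by very little, and the highest were CPF 0.1 + Cu 0.25 replicates 2 and 3 (8.21 and 8.01). The difference was 0.31 ± 0.07 log2, or 1.24-fold (limma, adjusted p = 0.0152). Without the 4 arrays it was 0.34, with an adjusted p of 0.0506.

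nqo1, whose enzyme reduces quinones with NADH or NADPH, was lower. It ranged from 9.53 to 10.93 without copper (median 10.67) and from 9.47 to 10.40 with it (median 10.07). One array without copper, CPF 0.6 replicate 3, was at 9.53, and the other 11 lay at 10.41 or above, over all 12 copper arrays. That array also had the lowest summed level of olfactory sensory neuron markers among those without copper (5749), and the part of this in its nqo1 value was not tested. The difference was -0.51 ± 0.14 log2, a 1.43-fold lower level (limma, adjusted p = 0.0363), and it lay below 0 at each CPF level, between -0.68 and -0.40. Without the 4 arrays it was -0.44 (adjusted p = 0.148), from -0.73 at CPF 0.25 to -0.09 at CPF 0.6. When each array was left out in turn the difference ran from -0.62 to -0.44, and the call held in 9 of 24 fits (adjusted p up to 0.102): those without CPF 0.1 replicate 2, CPF 0.25 replicate 1, CPF 0.6 replicate 3, Cu 0.25 replicate 2, control replicate 2 or 3, or, of the mixtures, CPF 0.1 replicate 3, CPF 0.25 replicate 1 or CPF 0.6 replicate 2.

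Sample titles carry 3 dates, whose meaning is not stated, and the fit holds a term for them. Within dates 1 and 2 alone, with fewer arrays, txnl1 was at 0.49 and 0.47, gsto2 at 0.53 and 0.78, prdx4 at 0.32 and 0.35 and nqo1 at -0.60 and -0.47, and none passed. Without the 5 arrays of date 3, txnl1 and prdx4 passed, and gsto2 (0.73, adjusted p = 0.0594) and nqo1 (-0.48, adjusted p = 0.121) did not.

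**Figure D1:**
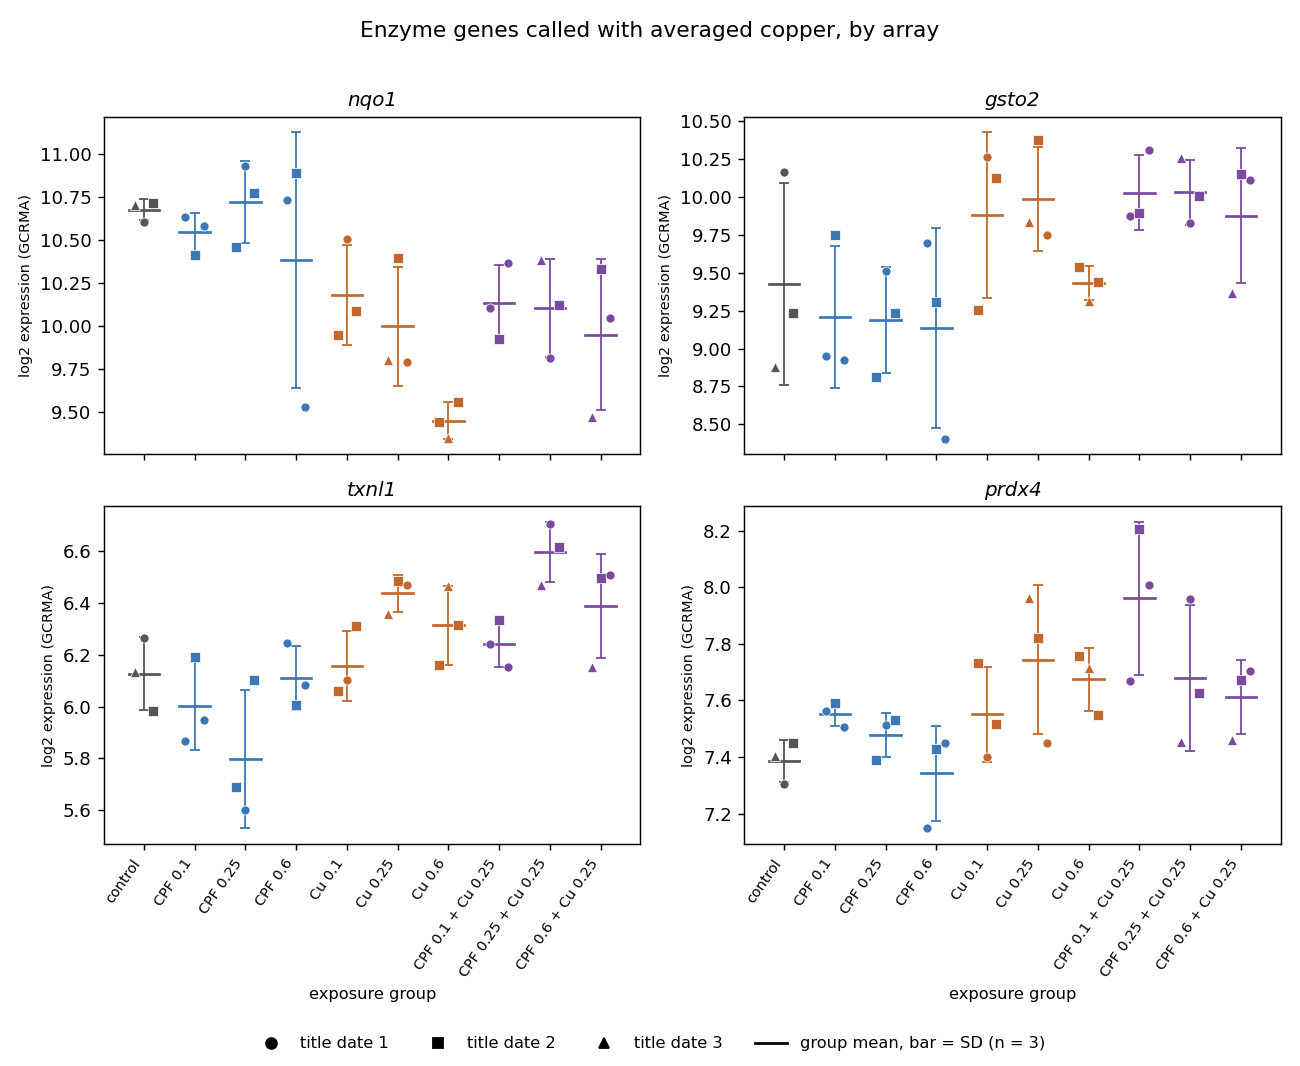
Log2 expression (GCRMA, vertical axes, each cut to its gene's range) of nqo1, gsto2, txnl1 and prdx4 in the 10 exposure groups. Each marker is an array, its shape gives the date in the sample title, and lines with bars are group means and SD (n = 3). The 3 Cu 0.6 arrays are the only group with all nqo1 values at or below 9.56, and txnl1 is highest in CPF 0.25 + Cu 0.25.

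Among the remaining peroxiredoxins, prdx1, a cytosolic enzyme, had the larger difference but also the larger spread. It was 0.57 ± 0.19 log2 (limma, adjusted p = 0.0900), with 11 of 12 copper arrays above the no-copper median. The exception was CPF 0.6 + Cu 0.25 replicate 1, an array of date 3, at 7.92. That was the lowest deposited value of all 30 arrays, beside 9.40 and 9.21 in that group. With the date term removed it was at 8.27, and Cu 0.6 replicate 1 was lowest at 7.94. Leaving out an array made prdx1 pass in 2 of 24 limma fits. They were those without CPF 0.6 + Cu 0.25 replicate 1 (0.63, adjusted p = 0.0481) and without CPF 0.1 replicate 2 (0.67, adjusted p = 0.0384). Against control prdx1 was at 0.42 for CPF 0.6 alone and at 0.43 for CPF 0.6 + Cu 0.25, so the copper difference at that level was 0.02, and it was 0.85, 0.70 and 0.73 with no CPF, CPF 0.1 and CPF 0.25. The averaged difference without the 4 arrays was 0.70 (adjusted p = 0.129). Its 2 further probe sets gave 0.65 and 0.51 (adjusted p = 0.0910 and 0.0682). The other peroxiredoxins, prdx2 (0.10), prdx3 (0.06) and prdx5 (-0.03), did not pass either.

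The 3 genes of the set that make or recycle glutathione, gclc, gclm and gsr, had differences above 0, and none passed with all arrays in the fit. gsr, glutathione reductase, was at 0.44 ± 0.14 log2 (limma, adjusted p = 0.0773), with all 12 copper arrays above the no-copper median. When an array was left out, gsr passed without control replicate 2 (0.50, adjusted p = 0.0242) and without CPF 0.6 replicate 2 (0.50, adjusted p = 0.0489). gclc and gclm, the catalytic and modifier subunits of the ligase that limits glutathione synthesis, were at 0.25 ± 0.11 and 0.29 ± 0.13 (adjusted p = 0.215 and 0.232), each above that median in 11 of 12 arrays. The gsr difference was 0.32, 0.46 and 0.92 with no CPF, CPF 0.1 and CPF 0.25, and 0.04 with CPF 0.6. Without the 4 arrays gsr was at 0.67, and gclc and gclm were at 0.20 and 0.23. In that fit gsr was at 1.37 at CPF 0.25, with replicate 2 (5.40) as the only array of CPF 0.25 alone. At the other levels it was at 0.39 to 0.47.

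In the thioredoxin system txnb, a thioredoxin, was at 0.43 ± 0.13 log2, txnrd3, a thioredoxin reductase, at 0.24 ± 0.08, and txndc9, a thioredoxin domain protein, at 0.42 ± 0.13, with limma adjusted p-values of 0.0579, 0.0788 and 0.0813. txnb was at 0.50, 0.64 and 0.68 with no CPF, CPF 0.1 and CPF 0.25, and at -0.09 with CPF 0.6. The glutaredoxin gene glrx3, which handles iron-sulfur clusters in yeast and mammals, was at 0.14 ± 0.04 (adjusted p = 0.0571), and its other probe set, at 0.21, passed (adjusted p = 0.0496). Leaving out the 4 arrays put txnb, txnrd3, txndc9 and glrx3 at 0.49, 0.27, 0.30 and 0.16, with adjusted p from 0.109 to 0.314.

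The core superoxide and peroxide enzymes had small differences, none past the threshold. Cytosolic sod1 was at 0.08 ± 0.04 log2 (adjusted p = 0.345), mitochondrial sod2 at 0.11 ± 0.05 (0.245) and catalase, cat, at 0.05 ± 0.10 (0.842). Over all 30 arrays sod1 kept within 10.30 to 10.78 and sod2 within 9.36 to 9.85, while cat ranged from 6.32 to 7.52. Of the glutathione peroxidases, gpx1a was at 0.14 ± 0.10 (adjusted p = 0.480), and gpx4a, which acts on lipid peroxides, at 0.07 ± 0.10 (0.755). gpx1b had the only negative value of that family, -0.44 ± 0.17 (adjusted p = 0.168), and was negative at each CPF level.

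Among the other transferases gstp1.2, of the pi class, was at -0.19 ± 0.09 log2 (adjusted p = 0.269), and gsto1, gstk1, gstm.1 and gstt1b lay between -0.09 and 0.10. The methionine sulfoxide reductases lay between -0.18 (msrb1b) and 0.12 (msrb3). Over the 38 genes 15 (39.5%) had an unadjusted p under 0.05, against 19.3% of all probe sets, 26 (68.4%) were above 0, against 55.6%, and their median difference was 0.09, against 0.02. The copper difference was above 0 at all 4 CPF levels in 17 genes (44.7%), against 16.4% of all probe sets, and below 0 at all 4 in 5 genes (13.2%), against 13.2%. These genes are not independent of each other, and the shares carry no test.

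**Figure D2:**
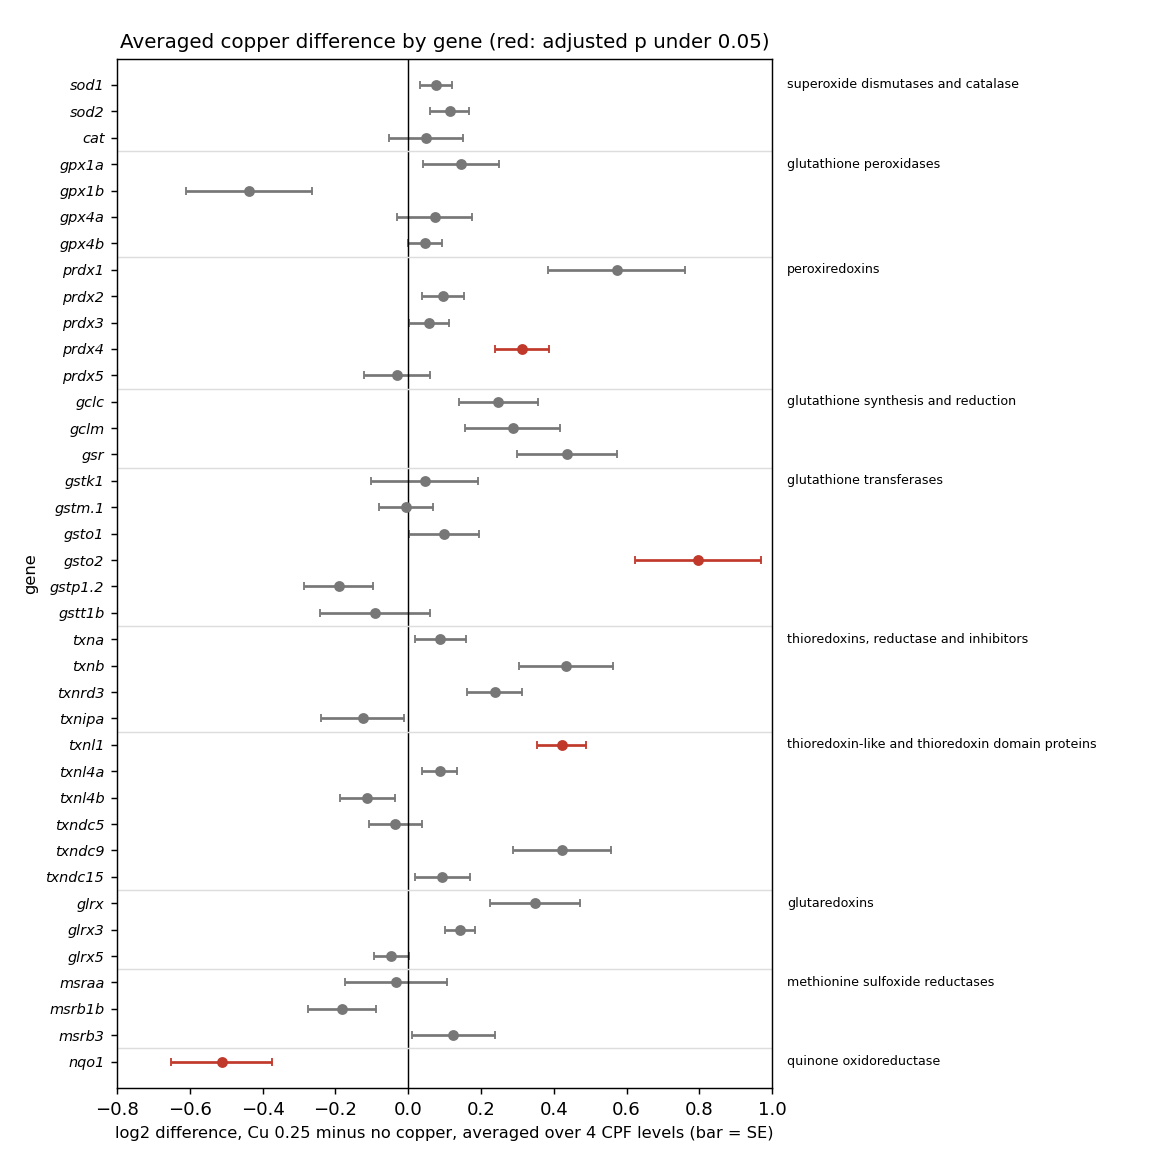
Difference of Cu 0.25 from no copper, averaged over 4 CPF levels, on the log2 scale (horizontal axis) for the 38 tested genes in blocks by role. Points are the fitted differences, bars are SE, and red marks an adjusted p under 0.05. Points range from -0.51 (nqo1) to 0.80 (gsto2), and all 3 genes of glutathione synthesis and reduction lie to the right of 0 in grey.

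Copper alone was compared with the control at each concentration. At Cu 0.6 nqo1 fell, and it was the only enzyme gene called, 1 of 38 (2.63%) where 1.62% of all probe sets were called. The difference was -1.24 ± 0.27 log2, a 2.37-fold lower level (limma, adjusted p = 0.0205). Its levels were 10.70, 10.60 and 10.72 in the controls, 9.95, 10.51 and 10.08 at Cu 0.1, 9.80, 10.40 and 9.79 at Cu 0.25, and 9.44, 9.35 and 9.56 at Cu 0.6. Every array with copper alone lay below every control array, and the 3 Cu 0.6 arrays lay below all others with copper alone. The trend over the 4 ranks of copper concentration was -0.39 ± 0.09 log2 per step (limma, adjusted p = 0.0210), and that call ended without any 1 of the Cu 0.6 arrays, control replicate 1 or control replicate 3 (adjusted p of 0.0544 to 0.107). The call at Cu 0.6 held in 1 of 6 fits that left out an array, the one without control replicate 2, with adjusted p up to 0.122 without control replicate 1. Without the arrays of date 3 the difference was -1.19 (adjusted p = 0.171). Within date 2, where control replicate 3 was the only control array, it was -1.22.

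glrx3 rose with copper rank, by 0.11 ± 0.03 log2 per step (limma, adjusted p = 0.0348), which made 2 of 38 genes (5.26%) called for the trend, against 2.23% of all probe sets. An unadjusted p under 0.05 was reached by 9 genes, against 15.1%. The glrx3 levels were 9.19, 9.25 and 9.24 in the controls, 9.32, 9.27 and 9.36 at Cu 0.1, 9.35, 9.52 and 9.32 at Cu 0.25, and 9.62, 9.42 and 9.59 at Cu 0.6. All 9 copper arrays lay above all 3 controls in the deposited values. So did 2, 2 and 1 of 3 arrays of CPF 0.1, 0.25 and 0.6 alone, which had no copper. The fitted difference at Cu 0.1 was 0.06 ± 0.08 (limma, adjusted p = 0.809). With the date term removed, 2 of 3 Cu 0.1 arrays lay above the controls. The trend call ended without any 1 of the 3 controls or of the 3 Cu 0.6 arrays (adjusted p of 0.0559 to 0.103), and without date 3 (0.139). At Cu 0.6 itself the difference was 0.32 ± 0.08 (adjusted p = 0.0561). The other glrx3 probe set was at 0.19 ± 0.12 there (limma, adjusted p = 0.463).

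glrx, which removes glutathione from oxidised proteins, was at 0.27 ± 0.08 log2 per step (adjusted p = 0.0635) and at 0.74 ± 0.24 at Cu 0.6 against control, 1.67-fold (adjusted p = 0.129). Its levels at Cu 0.6 were 8.99, 8.05 and 8.89, against 8.19, 7.85 and 7.68 in the controls, so 2 of 3 arrays lay above the controls. The low one, replicate 2, shared its title date with control replicate 1, the highest control. Without that Cu 0.6 array the difference was 1.1 and passed (adjusted p = 0.0368). It passed in no other fit that left out an array. The trend of glrx without the 4 arrays was 0.31 and passed (adjusted p = 0.0383), and those of nqo1 and glrx3, -0.36 and 0.11, passed as well (0.0300 and 0.0304). gstp1.2 was at 12.31, 12.47 and 12.11 at Cu 0.6, all below the controls (12.96, 13.03 and 12.92), a difference of -0.69 ± 0.19 log2 (adjusted p = 0.0615).

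Some genes had a higher fitted difference from control with Cu 0.25 alone than at Cu 0.6. prdx1 was at 8.0, 9.10 and 8.13 in the controls, 8.48, 9.58 and 9.28 at Cu 0.1, 9.33, 9.02 and 9.43 at Cu 0.25, and 8.06, 7.93 and 8.25 at Cu 0.6. The 3 Cu 0.25 and 3 Cu 0.6 arrays did not overlap, and control replicate 2 lay among the Cu 0.25 arrays. Cu 0.6 against Cu 0.25, a contrast added after the data were seen, gave -1.21 ± 0.37 log2 (adjusted p = 0.383; -1.16 without the 4 arrays), and 0 of 38 genes were called in limma, against 0.038% of all probe sets. An unadjusted p under 0.05 was reached by 4 genes, against 7.95%. The other prdx1 probe sets were at -0.66 and -0.69 at Cu 0.6 against control, where the one used was at -0.37 (adjusted p of 0.491, 0.291 and 0.692).

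gsto2, called with averaged copper, was at 9.53, 9.31 and 9.44 at Cu 0.6, inside the range of the controls, a difference of 0.02 ± 0.34 log2 (adjusted p = 0.989). prdx4 was at 7.76, 7.72 and 7.55 there, above the controls (7.40, 7.31 and 7.45), with a difference of 0.26 ± 0.15 (adjusted p = 0.424). txnl1 was at 6.16, 6.47 and 6.32 (0.18 ± 0.14, adjusted p = 0.577), with control replicate 2 at 6.26 among them. gclc, gclm and gsr were at -0.12 ± 0.21, -0.23 ± 0.26 and 0.09 ± 0.27 (adjusted p = 0.831, 0.721 and 0.907). With Cu 0.25 alone against control these 3 were at 0.12 ± 0.21, 0.30 ± 0.25 and 0.32 ± 0.27, and gsto2 at 0.56 ± 0.34 (limma, adjusted p of 0.584 to 0.906). At Cu 0.6 19 of 38 genes were above 0 (50%), against 58.3% of all probe sets, and 6 had an unadjusted p under 0.05 (15.8%), against 15%.

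**Figure D3:**
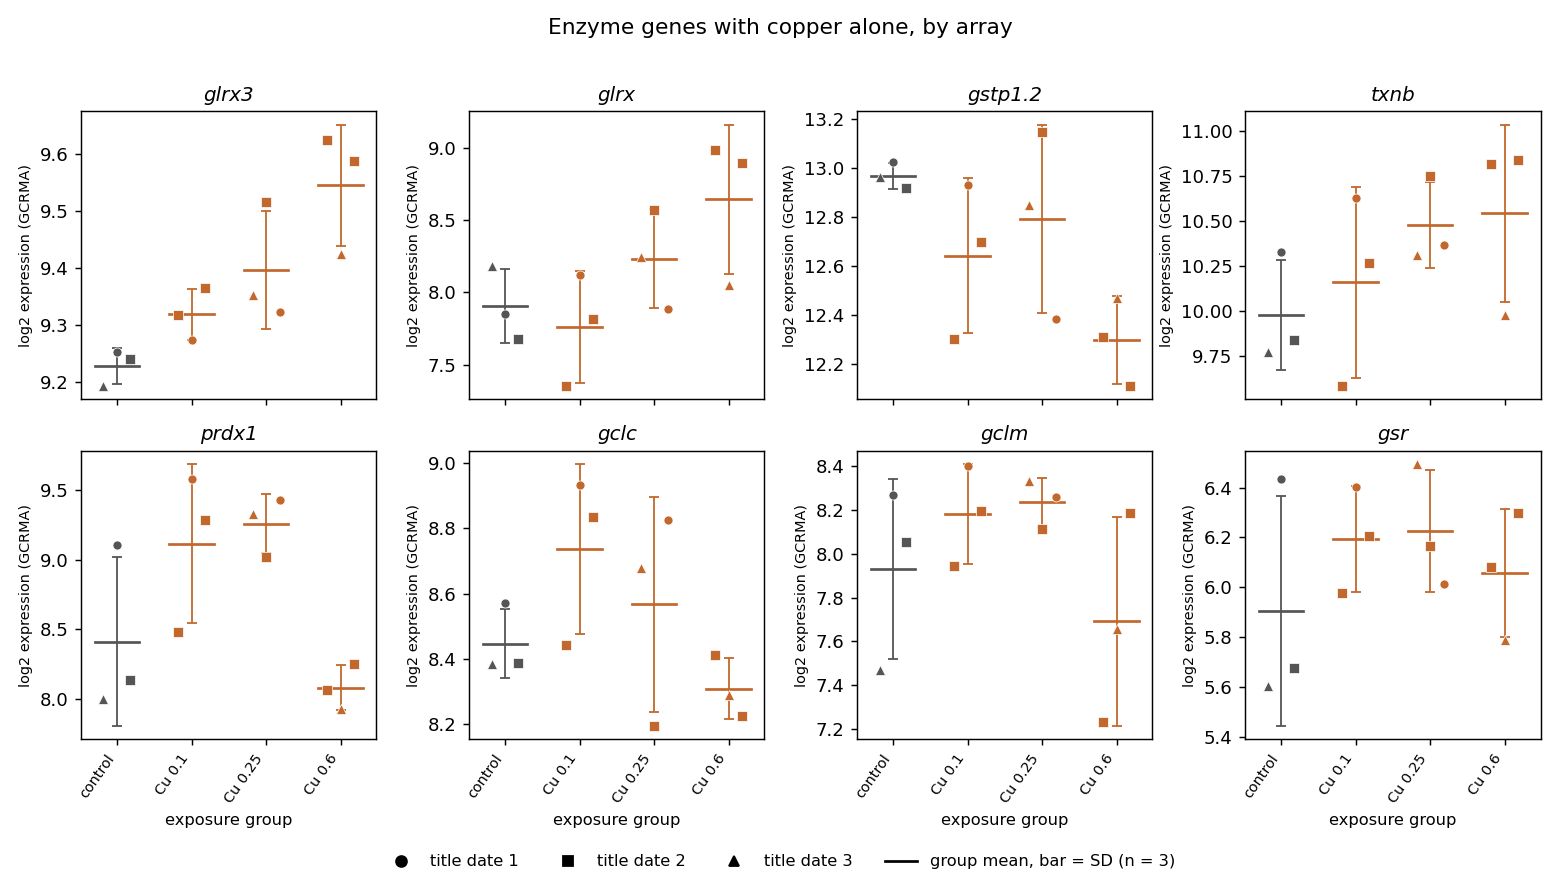
Log2 expression (vertical axes, each cut to its gene's range) of 8 enzyme genes in the control, Cu 0.1, Cu 0.25 and Cu 0.6 groups. Each marker is an array, its shape gives the title date, and lines with bars are group means and SD (n = 3). All 9 glrx3 values with copper lie above the controls, and prdx1 is at 9.02 or more in Cu 0.25 and at 8.25 or less in Cu 0.6.

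Cu 0.1 and Cu 0.25 called no enzyme gene in limma, where 0% and 0.351% of all probe sets were called. An unadjusted p under 0.05 was reached by 1 and 5 of 38 genes, against 10.8% and 11%. The gene of that kind at Cu 0.1 was gsto1 (0.53 ± 0.19 log2, adjusted p = 0.376). At Cu 0.25 they were nqo1 (-0.68), prdx4 (0.36), txnl1 (0.31), prdx1 (0.85) and txndc9 (0.59), with adjusted p from 0.338 to 0.409. Those at Cu 0.25 include 3 genes called with averaged copper, which contains these arrays. Without Cu 0.25 replicate 3 and the other 3 arrays the 5 were at -0.53, 0.50, 0.30, 0.83 and 0.48, with adjusted p from 0.165 to 0.469.

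CPF alone called no enzyme gene at any concentration in limma. All probe sets gave 0% at CPF 0.1 and at CPF 0.25, and 0.0095% at CPF 0.6, and the genes at an unadjusted p under 0.05 numbered 1, 1 and 2, against 6.87%, 5.78% and 8.48%. The theta class transferase gstt1b was at 8.11, 7.42 and 7.68 in the controls and at 6.81, 7.43 and 6.40 at CPF 0.6, with 1 array inside the control range, a difference of -0.85 ± 0.31 log2 (adjusted p = 0.395). sod1, at 10.47, 10.44 and 10.30 there, lay below all controls (10.66, 10.56 and 10.66), by -0.21 ± 0.09 log2 (adjusted p = 0.480). Without CPF 0.6 replicate 2 and the other 3 arrays, gstt1b was at -1.25 and sod1 at -0.26 (adjusted p = 0.216 and 0.477).

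Averaged over copper, the F-test of CPF level called 0 of 38 genes, against 0.0285% of all probe sets. An unadjusted p under 0.05 was reached by 2 genes, against 4.91%. The kappa class transferase gstk1 had the smallest p. Its levels were 6.92, 7.36 and 7.74 in the controls, 7.08, 6.24 and 7.02 at CPF 0.1, 7.02, 7.08 and 7.25 at CPF 0.25, and 6.87, 7.11 and 6.51 at CPF 0.6, with overlap at each. Averaged over copper it differed from no CPF by -0.70, -0.60 and -0.65 log2 at CPF 0.1, 0.25 and 0.6 (adjusted p = 0.699). The no-CPF side also holds Cu 0.25 alone, at 7.70, 8.18 and 6.79 for gstk1. Without the 4 arrays rich in pancreatic enzymes gstk1 was at -1.08, -0.99 and -1.09 log2. That setting was chosen after the data were seen and leaves CPF 0.25 with 1 array. It also drops the lowest Cu 0.25 array, replicate 3, and the gstk1 copper difference with no CPF went from 0.21 to 0.75. The methionine sulfoxide reductase msrb3 was the other gene with an unadjusted p under 0.05 in the F-test on all arrays.

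The 3 mixtures against control called no enzyme gene either, where 0.171%, 0.18% and 0.095% of all probe sets were called at CPF 0.1, 0.25 and 0.6 with Cu 0.25. Their counts at an unadjusted p under 0.05 were 4, 10 and 3 of 38, against 15.5%, 15.9% and 8.96% of all probe sets. The 10 genes of CPF 0.25 + Cu 0.25 held 3 genes of the route from NADPH to glutathione or thioredoxin, gsr (0.78 ± 0.27 log2), txnb (0.70 ± 0.25) and txnrd3 (0.43 ± 0.15), and also gclc (0.47 ± 0.21) and glrx3 (0.18 ± 0.08). gsr was at 6.68, 6.54 and 6.81 in that mixture, all above the controls (5.60, 6.44 and 5.68), and txnb at 10.80, 10.69 and 10.56, also above them (9.77, 10.33 and 9.84). Their adjusted p-values were between 0.175 and 0.289. The largest difference of the 38 genes there was that of prdx1 (0.89), outside this route. Other enzyme genes were lower in that mixture: nqo1 was at -0.57 (limma, adjusted p = 0.308). The glutathione transferases ranged from -0.66 to 0.60, with 2 of 6 above 0, and -0.66 was the lowest of the 38.

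The smallest adjusted p in the mixtures was 0.104, for txnl1 in CPF 0.25 + Cu 0.25. Next was prdx4 in CPF 0.1 + Cu 0.25 at 0.129, with 7.67, 8.21 and 8.01 against at most 7.45 in the controls. All 9 single and joint exposures share the 3 control arrays, so the 9 comparisons are not independent. The test of whether the copper difference varied with CPF level called 0 of 38 genes, against 0% of all probe sets, and 1 gene, txnl1, had an unadjusted p under 0.05, against 3.67%.

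**Figure D4:**
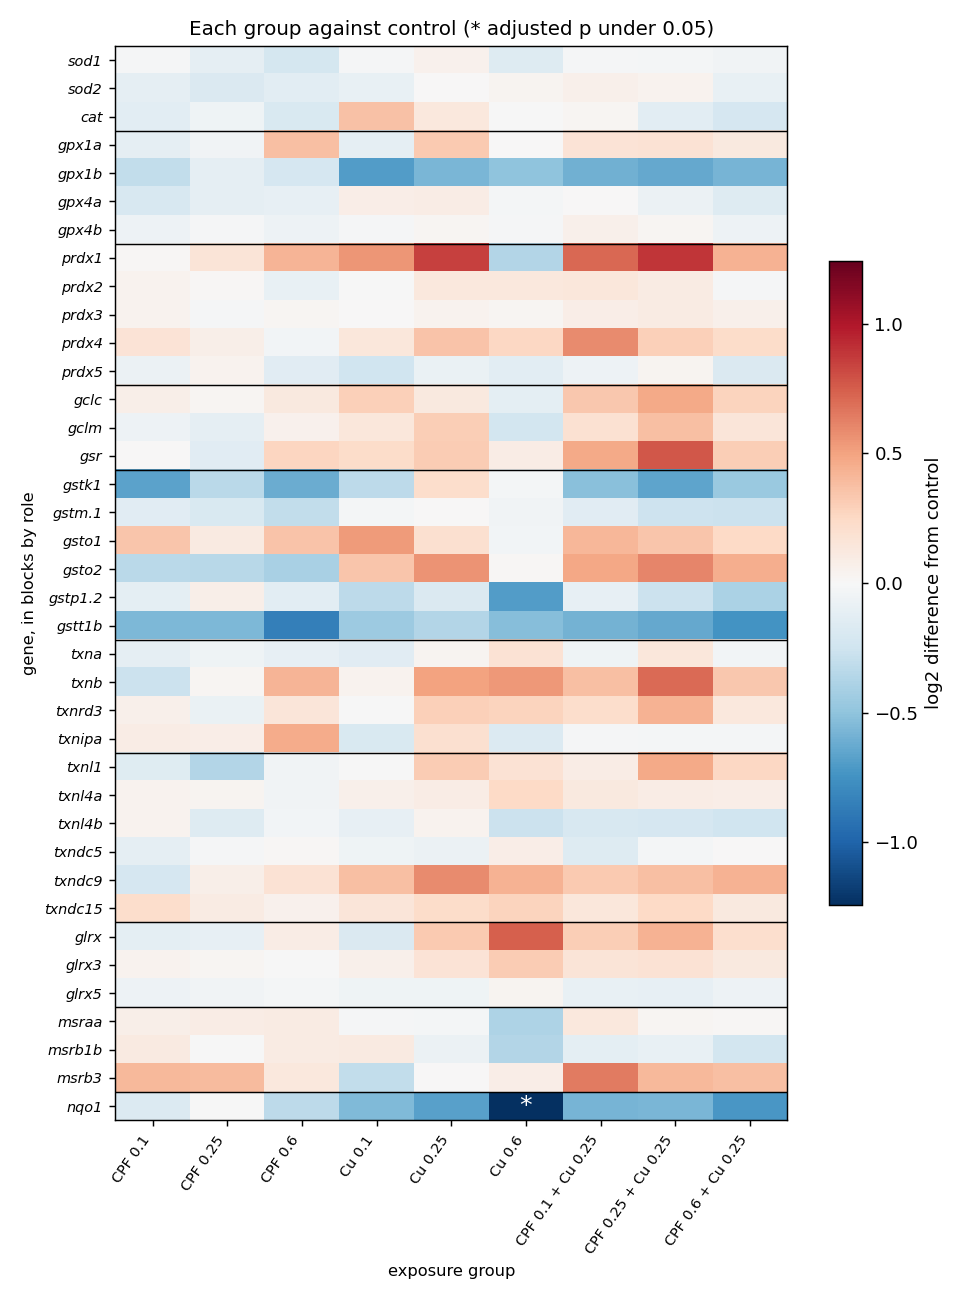
Log2 difference of each exposed group (columns) from the control for the 38 tested genes (rows, in blocks by role), red above and blue below 0, with a star at an adjusted p under 0.05. The star stands at nqo1 in Cu 0.6 (-1.24), and prdx1 lies between 0.01 (CPF 0.1) and 0.89 (CPF 0.25 + Cu 0.25) in all columns but Cu 0.6, where it is blue (-0.37).

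Over all 10 groups the F-test called txnl1 (adjusted p = 0.0363), 1 of 38 genes (2.63%), against 1.32% of all probe sets, and 10 had an unadjusted p under 0.05, against 12.6%. The txnl1 call held in 15 of 30 fits with an array left out. The highest adjusted p were 0.111 without CPF 0.25 + Cu 0.25 replicate 2 and 0.104 without CPF 0.25 replicate 1. The genes differed in how much they varied between arrays of a group: the residual SD ran from 0.08 log2 for glrx3 to 0.48 for prdx1, with a median of 0.24, against 0.20 over all probe sets. In the trend over copper rank glrx3 passed at 0.11 per step, and prdx1 was at -0.08 (limma, adjusted p = 0.803). With averaged copper neither passed, glrx3 at 0.14 and prdx1 at 0.57. The fitted group means of prdx3, a mitochondrial peroxiredoxin, spanned 0.12 log2 over the 10 groups, those of nqo1 1.24 and those of gsto2 1.01.

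Of the genes with several tested probe sets, txndc5, a disulfide isomerase of the endoplasmic reticulum, gave different answers over 6. The probe set used was at -0.04 log2 with averaged copper (adjusted p = 0.841), and 2 others were at 0.27 and 0.32 and passed (adjusted p = 0.0391 and 0.0281). The remaining 3 were at -0.08, 0.02 and 0.17 (adjusted p = 0.485, 0.900 and 0.335). For txnrd3 both probe sets were above 0 with averaged copper (0.24 and 0.15), and at Cu 0.6 they differed in sign (0.27 and -0.15).

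Genes around the enzymes were read from lists of the same pathways, beside 4.35% of all probe sets called with averaged copper and 1.62% at Cu 0.6, with medians of 0.02 and 0.05 log2. Of 12 tested Nrf2 regulators and targets outside the enzyme set, 2 fell at Cu 0.6 and 0 rose, with a median of -0.09. nfe2l2a, which encodes zebrafish Nrf2, was at 9.77, 9.09 and 9.71 in the controls and at 8.57, 8.25 and 8.78 at Cu 0.6, with no overlap. It fell by 1.07 on the log2 scale (± 0.25, limma, adjusted p = 0.0259). blvrb, a biliverdin reductase, was at 8.46, 8.45 and 8.10 in the controls and 7.62, 7.45 and 7.85 at Cu 0.6, again with no overlap, and fell by 0.72 (± 0.17, adjusted p = 0.0354). Each held in 2 of 6 fits that left out an array, nfe2l2a without Cu 0.6 replicate 3 or control replicate 2, and blvrb without Cu 0.6 replicate 3 or control replicate 3, and blvrb was at -0.70 without the 4 arrays (adjusted p = 0.0543). Without the arrays of date 3 neither passed (adjusted p = 0.331 for nfe2l2a and 0.306 for blvrb). keap1a, which encodes a zebrafish Keap1, was at 0.28 (adjusted p = 0.608).

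With averaged copper 1 of the 12 rose and 0 fell, with a median of 0.03. This was sqstm1, the autophagy adaptor p62 that binds Keap1 in mammals. It lay between 9.38 and 10.46 without copper (median 9.57) and between 9.75 and 10.67 with it (median 10.32), with wide overlap, a difference of 0.60 log2 (limma, adjusted p = 0.0310). It passed in 15 of 24 fits that left out an array (adjusted p up to 0.0706, without control replicate 1) and not without the 4 arrays (0.52, adjusted p = 0.183). At Cu 0.6 sqstm1 was at 9.27, 8.87 and 10.21, a difference of -0.19 (adjusted p = 0.825).

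Of 11 tested genes of glutathione synthesis, breakdown and supply outside the enzyme set, 1 rose and 1 fell with averaged copper, with a median of -0.03. Of the 11, 5 were above 0, against 55.6% of all probe sets. At Cu 0.6 the median was 0.15 and limma called 0 of the 11, with 2 at an unadjusted p under 0.05, against 15% of all probe sets. slc3a2a, a subunit of amino acid carriers that include the cystine carrier, rose by 0.30 log2 (adjusted p = 0.0292), from a median of 5.93 to 6.21. chac1, whose mammalian protein degrades glutathione, fell by 0.26 (adjusted p = 0.00510), from a median of 11.33 to 10.99. The arrays overlapped little for chac1, at 11.13 to 11.54 without copper and 10.90 to 11.22 with it.

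Of 12 NADPH supply genes 2 rose with averaged copper, taldo1 (transaldolase, 0.23 log2, adjusted p = 0.0309) and nnt (the mitochondrial transhydrogenase, 0.19, adjusted p = 0.0135), and 11 of 12 were above 0, against 55.6% of all probe sets, with a median of 0.12. At Cu 0.6 limma called 0 of the 12, with 3 at an unadjusted p under 0.05, against 15% of all probe sets. Leaving out an array kept the call of slc3a2a in 17 of 24 fits, of taldo1 in 16 and of nnt in 23, with the highest adjusted p of slc3a2a and nnt without control replicate 1 (0.0966 and 0.0547) and of taldo1 without CPF 0.25 + Cu 0.25 replicate 2 (0.0879). Without the 4 arrays slc3a2a (0.26), chac1 (-0.23) and nnt (0.17) missed the threshold, with adjusted p of 0.186, 0.0647 and 0.102. Of 16 tested selenoprotein and selenocysteine genes (medians 0.04 with averaged copper and -0.02 at Cu 0.6) 1 fell, in both contrasts: selenot1a, selenoprotein T of the endoplasmic reticulum, by 0.52 with averaged copper and by 0.99 at Cu 0.6 (adjusted p = 0.000296 and 0.000999). All 3 Cu 0.6 arrays (8.91, 8.86 and 9.12) lay below the controls (10.06, 9.55 and 10.14).

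Of 15 copper and metal handling genes 1 rose with averaged copper (median 0.02) and 1 at Cu 0.6 (median -0.25). The ferritin gene fthl28 rose with averaged copper, by 2.78 log2 (adjusted p = 0.0116), and was at 2.55 without the 4 arrays (adjusted p = 0.0950). Its levels overlapped widely, at 5.91 to 11.62 without copper and 9.44 to 11.75 with it. At Cu 0.6 fthl28 was at 6.68, 7.65 and 9.08, against 7.61, 11.16 and 6.98 in the controls, a difference of -0.72 (adjusted p = 0.831), and its trend was -0.26 per step (adjusted p = 0.808). The zinc transporter slc30a7 rose at Cu 0.6 (0.50, adjusted p = 0.0205), from 7.98, 7.97 and 7.98 in the controls to 8.50, 8.45 and 8.50. The slc30a7 call held in 0 of 6 fits that left out an array, with adjusted p from 0.0521 to 0.102. Over copper rank slc30a7 was called at 0.17 per step (limma, adjusted p = 0.0137), against 2.23% of all probe sets. So were nfe2l2a (-0.30, adjusted p = 0.0410), blvrb (-0.21, 0.0448) and selenot1a (-0.31, 0.00109). The trend uses the same control and Cu 0.6 arrays, so it is not independent of the Cu 0.6 contrast.

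**Figure D5:**
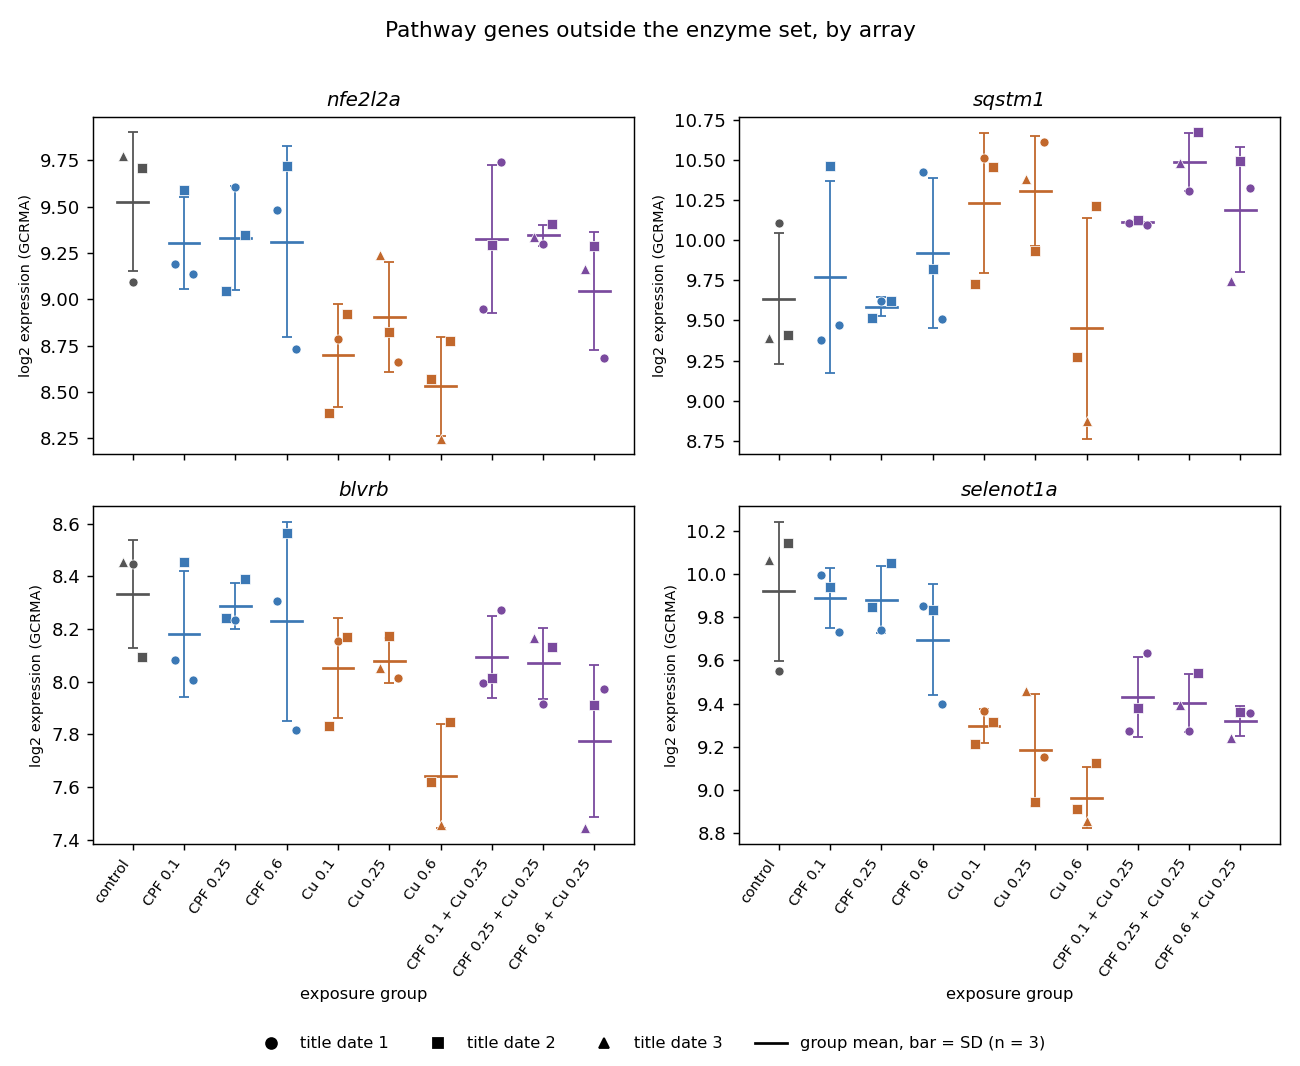
Log2 expression (vertical axes, each cut to its gene's range) of nfe2l2a, sqstm1, blvrb and selenot1a, pathway genes outside the enzyme set, in the 10 exposure groups. Each marker is an array, its shape gives the title date, and lines with bars are group means and SD (n = 3). At Cu 0.6 all nfe2l2a, blvrb and selenot1a values lie below the controls, and sqstm1 spreads from 8.87 to 10.21.

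Cell type markers were read in the same groups, and the summed level of olfactory sensory neuron markers was lower with copper than in the controls. Of 21 listed olfactory sensory neuron markers 5 were measured, and 4 of them fell with averaged copper and at Cu 0.6, and gnao1a did not pass. Their summed linear level was 8312 to 10280 in the controls, 5412 to 5827 at Cu 0.1 and 3409 to 3881 at Cu 0.6. It was 5749 to 10689 (median 8615) in the 12 arrays without copper and 3576 to 6614 (median 4539) in the 12 with Cu 0.25. ompb was lowest at Cu 0.6 (3.56 to 3.89), where all its values lay below the log2 value of 4 used in the filter. In such tissue RNA fewer cells of a type and less RNA per cell cannot be told apart. The part of the neurons in the values of nqo1, glrx3, the other enzyme genes, nfe2l2a and selenot1a was not tested.

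The summed levels of the other marker lists overlapped between the 12 arrays with Cu 0.25 and the 12 without copper. Of all probe sets 4.35% were called with averaged copper and 1.62% at Cu 0.6. Of 14 macrophage and neutrophil markers 2 rose with averaged copper, marco and c1qc, with a summed level of 31714 to 41184 with copper and 26732 to 41640 without. Of 21 epithelial markers agr2 rose and pvalb8 fell (36206 to 57405 against 33764 to 66036), and of 21 bulb and telencephalon markers th fell (30785 to 41069 against 29701 to 42738). The values of th lay near the log2 value of 4 used in the filter, at 3.53 to 4.20 with Cu 0.25 and 3.93 to 4.82 without copper. Of 14 liver and pancreas markers fabp10a and apoa2 fell (4216 to 7148 against 3447 to 8413). With Cu 0.25 all fabp10a values lay below the log2 value of 4 used in the filter (2.72 to 3.77, against 3.01 to 6.43 without copper). apoa2 reached below it with Cu 0.25 (3.53 to 5.33, against 4.25 to 7.57). Of 8 erythrocyte markers limma called 0, with 0 at an unadjusted p under 0.05 (7572 to 12116 against 5433 to 14972), against 19.3% of all probe sets. At Cu 0.6 a pair of these lists did not overlap with the controls: the erythrocyte markers, at 8318 to 18253 against 6221 to 7475, and the macrophage and neutrophil markers, at 33400 to 36333 against 39929 to 41057. limma called 0 of 8 and 0 of 14 of their genes there, and 1 and 4 of them reached an unadjusted p under 0.05, against 15% of all probe sets. The macrophage and neutrophil mean log2 went the other way, at 8.26 to 8.50 against 8.18 to 8.23 in the controls. Of those 14 genes 10 were above 0 at Cu 0.6, against 58.3% of all probe sets, with a median difference of 0.13. Of the remaining lists pvalb8 was called, which fell by 3.44. The calls of th and apoa2 held in 13 and 15 of 24 fits that left out an array. The part of these cells in the enzyme values was not tested.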

How the data were processed

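The deposited values were log2 expression that the authors made with GCRMA (version not stated), according to the labels and per the submitters' processing notes. That they are log2 was read from their range (1.09 to 15.73). Of 15617 probe sets 115 controls were left out, and of the other 15502 the platform annotation gave 10795 a single symbol, 135 several and 4572 none. No symbol of the enzyme genes needed updating. Probe sets above 4 in at least 3 arrays (10531) entered 1 linear model in limma 3.58.1 (R 4.3.3; lmFit and eBayes) with the 30 arrays. It held 10 group means and the date in the sample title as a fixed effect. The labels do not say what these 3 dates (12, 13 and 5 arrays) stand for. Date 3 held control replicate 1, Cu 0.25 replicate 1, Cu 0.6 replicate 2 and replicate 1 of the mixtures with CPF 0.25 and 0.6, and Cu 0.6 had no array of date 1. P-values were Benjamini-Hochberg adjusted over the 10531 (threshold 0.05), with 18 residual degrees of freedom. Levels printed by array are the deposited ones, and differences are fitted, date term included.

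Members and lists were chosen with earlier results of these data known. The naming rule took genes past the threshold, a fixed set of core enzymes and the 3 largest differences of averaged copper and Cu 0.6. Other genes printed by array, such as gstt1b, sod1 and txnb, were picked after their values were seen. List genes named are those past the threshold, and keap1a was added. The fit was tested on simulated data. Alternatives were no date term, date as a random block, no date 3, other filters, quantile normalization, median centring, another prior, compared groups alone, the mean of probe sets, within-date fits and leaving out each array. The number of arrays limits the precision.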

Additional observations from a re-analysis of the deposited data

How the results depend on the processing

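Counts of enzyme genes called are given against those reported. With averaged copper (4), the count was 2 without the arrays of title date 3 (prdx4 and txnl1), 2 without 4 arrays rich in pancreatic enzymes (gsr and txnl1, a setting chosen after the data were seen), 0 within title date 1 and 0 within title date 2, 4 to 6 under the other settings, and 3 to 7 when each array was left out. The within-date fits use fewer arrays. At Cu 0.6 (1) the count was 0 without title date 3, 0 within title date 2, 2 with no filter, 3 with a filter at 6, 2 with quantile normalization, 3 with a trended and robust prior, and 0 to 1 when each array was left out. For the copper trend (2) it was 1 without title date 3, with quantile normalization, with the compared groups alone and with each gene's probe sets averaged, and 3 without the 4 arrays, with 0 to 3 when each array was left out. For any difference (1) it was 0 without title date 3, with quantile normalization and with median centring, with 0 to 2 when each array was left out. For CPF averaged over copper (0) it was 1 without the 4 arrays. Cu 0.1, Cu 0.25, CPF alone, the mixtures, Cu 0.6 against Cu 0.25 and the interaction stayed at 0 under every setting run. The averaged copper call of txnl1 held in every fit except those within a date; that of nqo1 also ended with no filter (adjusted p = 0.0520) and with the compared groups alone (0.0639), and that of gsto2 without title date 3 (0.0594). Array weights were not used, since that fit did not converge. No paired analysis was possible because the labels give no replicate numbers, so the replicates were numbered in accession order.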
